A study of Mus musculus with 4 samples.

Results

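Ciliated mimetic mTECs are medullary thymic epithelial cells that carry the gene program of motile cilia. They were chosen by the UMI counts themselves, as every cell with at least 4 of 7 genes of motile cilia (Foxj1, Dynlrb2, Tppp3, Tmem212, Ccdc153, Fam183b and Cfap126) with 1 UMI or more, a UMI being the count of 1 captured mRNA molecule. This rule found 152 of the 28055 cells kept, which had 200 genes or more and no more than 25% mitochondrial UMIs. Droplet-based scRNA-seq was run on sorted TECs of C57BL/6 mice aged 6 weeks in 4 conditions. WT-Control and WT-RANKL-Ab were wild-type mice given a control IgG or a neutralizing antibody to RANKL, and Cd40-/- Control and Cd40-/- RANKL-Ab were mice that lacked Cd40 in all cells and were given the same agents, in each case 2 weeks before analysis. Each condition was 1 library of cells pooled from 3 mice, so no condition had a replicate, and no difference between conditions could be tested. Values for the 4 libraries follow the order in which these were just named. Intervals are exact 95% intervals of counting error alone, which leaves out differences between mice and between libraries. For levels and their ratios they also leave out the spread between cells.

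Mimetic cells are mTECs that adopt parts of the programs of peripheral cell types and present the proteins of those cells to developing thymocytes. Multiciliated cells line the airways, the brain ventricles and the oviduct. To become multiciliated, a cell leaves the cell cycle and switches on Gmnc, Mcidas and Ccno, builds many centrioles on deuterosomes, docks them as basal bodies, and under Foxj1 and the RFX factors makes the axoneme of doublet microtubules, dynein arms, radial spokes and a central pair. The axoneme is assembled by intraflagellar transport, which carries tubulin and dynein arms to the tip.

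The 4 libraries held 2082 to 10218 of these cells and 19153685 to 95277834 UMIs. Between 17 and 205 cell barcodes were shared by any pair of libraries, with the most between the Cd40-/- libraries, and 1102 cells in all carried a barcode also found in another library. Of the ciliated cells, 1 in WT-Control and 2 in Cd40-/- Control were among them, and no barcode was shared between ciliated cells. Cd40, whose loss the labels name, was at 110 CPM (UMIs per 1000000 UMIs) over the kept cells of WT-Control, with 28.8, 5.75 and 4.75 CPM in the other libraries. At least 3 thymocyte genes were found in 251, 465, 958 and 336 cells in the same order, and 2, 0, 2 and 0 of the ciliated cells were among these.

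Ciliated cells were most frequent in WT-Control, were fewer after the RANKL antibody and were not found where the antibody was given to Cd40-/- mice. They were 90 of 10218 cells of WT-Control, or 0.881% (0.709 to 1.08). They were 52 of 8591 cells of Cd40-/- Control, or 0.605% (0.452 to 0.793). They were 10 of 7164 cells of WT-RANKL-Ab, or 0.140% (0.0670 to 0.257), which was 6.31-fold below WT-Control, with a log2 ratio of -2.66 (-3.77 to -1.71). By other readings it was 3.30-fold below with at least 3 of the 7 genes, 9.39-fold with at least 5 and 9.82-fold without Tppp3. Cd40-/- RANKL-Ab had 0 such cells among 2082, and a count of 0 allows a share of up to 0.144% (3 cells), at least 6.11-fold below WT-Control by that limit. The exact interval of this share reached 0.177%, and that of its log2 ratio to WT-Control reached -2.28. The interval of WT-RANKL-Ab did not reach those of the control libraries, and the share in Cd40-/- RANKL-Ab could not be told from that in WT-RANKL-Ab at this depth. Between Cd40-/- Control and WT-Control the share was 1.46-fold lower, with a log2 ratio of -0.54 (-1.06 to -0.03), and this interval reached past 0 in 6 of 10 other readings of the share, among them the count of cells with at least 5 of the 7 genes (42 against 67 cells, log2 ratio -0.42, -1.02 to 0.15). Fewer cells per thymus and fewer caught in the sort cannot be told apart in these shares. A share of sorted TECs also depends on how many other TECs a library held.

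**Figure D1:**
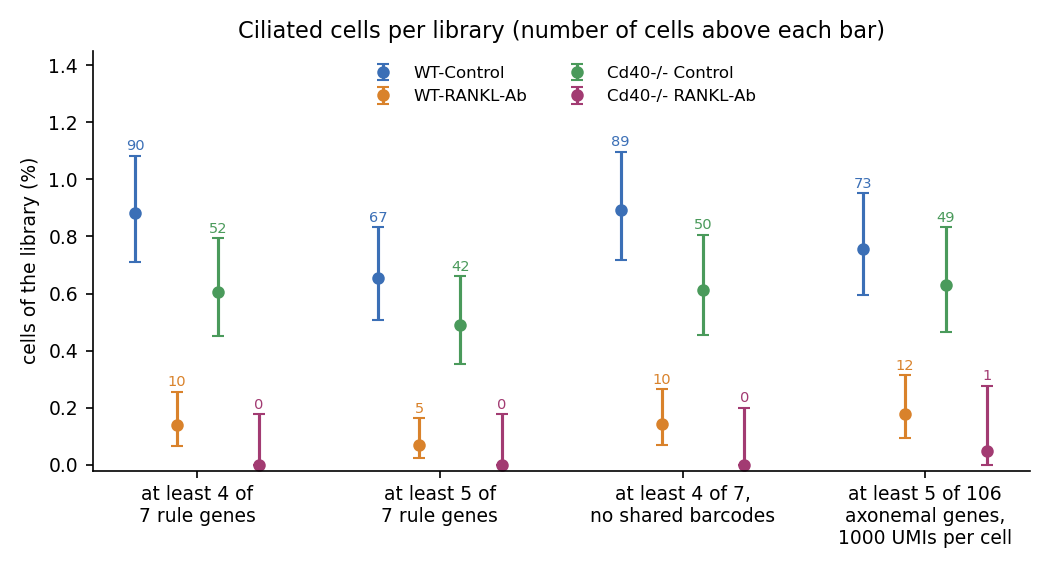
Share of ciliated cells in each library, as percent of its kept cells, by 4 definitions on the horizontal axis. Points are shares, bars are exact 95% intervals of counting error, and numbers are cells: by the first definition the libraries had 90, 10, 52 and 0 cells, in the order of the legend.

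Depth differed between the cells compared. The median ciliated cell held 14031.5 UMIs in WT-Control, 4615 in WT-RANKL-Ab, then 10922 in Cd40-/- Control, where the other cells held 7602, 6091 and 6256. A deeper cell passes a rule of detected genes more readily, so 1000 UMIs were drawn from each cell, and 570, 492, 806 and 74 cells of the 4 libraries fell short of this and were left aside. At this depth 33 of 9648, 4 of 6672, 18 of 7785 and 0 of 2008 cells met the rule. A count of at least 5 of 106 axonemal genes that the rule did not use, at the same depth, found 73, 12, 49 and 1 cells, or 0.757%, 0.180%, 0.629% and 0.0498%. By that count WT-RANKL-Ab was 4.21-fold below WT-Control, and the log2 ratio of Cd40-/- Control was -0.27 (-0.82 to 0.28).

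The label was checked against these 106 genes, which code for dynein subunits, docking and assembly factors, radial spokes and doublet microtubule proteins. In WT-Control the median number with a UMI was 7 in cells with 3 of the rule's genes, just outside it, and 12 in cells with 4, just inside it. It was 40.5, 49 and 68 in cells with 5, 6 and 7. These genes made up a median of 0.148% of the UMIs of the 23 cells with 4 rule genes and 1.74% of the UMIs of the 33 cells with all 7, against 0.0311% in the cells outside the rule. Of the 38 cells of all libraries with exactly 4 rule genes, 13 had 15 or more axonemal genes, and of the 114 cells with 5 to 7, 109 had. The 4-gene cells of WT-Control held Aire, the regulator of self-antigen display in mature mTECs, at 350 CPM and the MHC class II list at 46603 CPM, near the 335 and 44606 CPM of cells with 0 to 2 rule genes. The cells with 5 to 7 rule genes held them at 51.5 and 20693 CPM. The cells just inside the rule in WT-Control were thus mixed, and the ciliated label was carried by the cells with 5 or more rule genes. In Cd40-/- RANKL-Ab the 3 cells with 3 rule genes were deep, with a median of 43856 UMIs, and gave 0.0228% to 0.0397% of their UMIs to axonemal genes, a range that held the median of that library's other cells, 0.0286%.

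**Figure D2:**
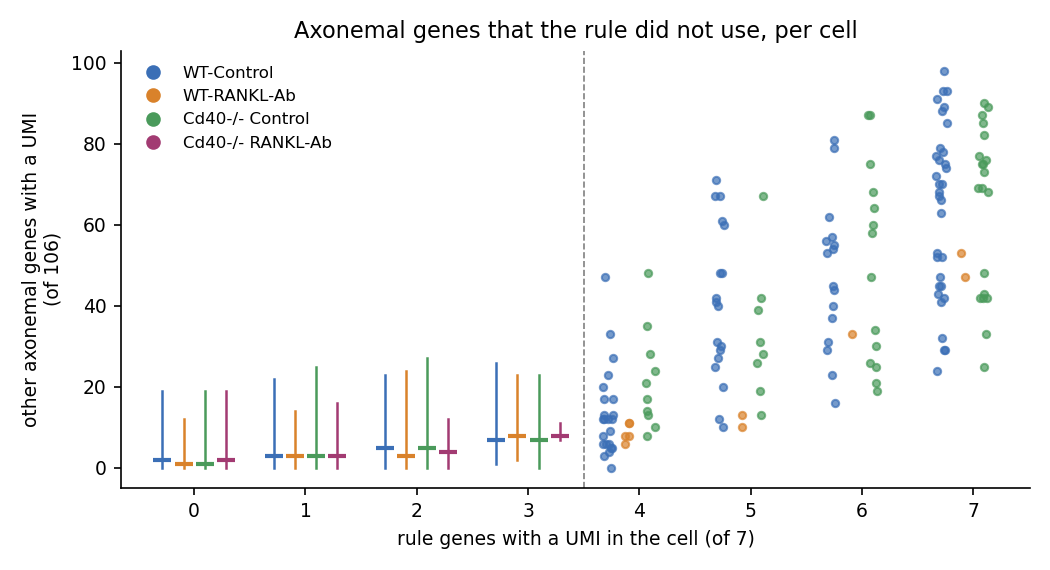
Number of axonemal genes with a UMI, of 106 that the rule did not use, by the number of rule genes with a UMI. Points are single ciliated cells, bars with a tick are the range and median of cells outside the rule (left of the dashed line), and colours are libraries: in WT-Control the median was 7 with 3 rule genes, 12 with 4 and 68 with 7.

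The genes of the rule are given as a description, since they chose the cells. Foxj1 (chr11:116330704-116335399, minus strand), the transcription factor of motile ciliogenesis, had 423 CPM in ciliated cells and 9.05 CPM in other cells of WT-Control, then 224 and 3.44 for WT-RANKL-Ab, and 275 and 4.6 for Cd40-/- Control. Dynlrb2 (chr8:116504974-116515915, plus strand), a dynein light chain, had 1470 and 0.893 CPM, 513 and 0.679, and 1614 and 0.853 in the same order. The ciliated cells thus held 95.6% of all Dynlrb2 UMIs of WT-Control but 38.4% of those of Foxj1. Tmem212 (chr3:27866066-27896368, minus strand), a membrane protein gene, had 374 of its 400 UMIs in WT-Control, 31 of 31 in WT-RANKL-Ab, as well as 180 of 191 in Cd40-/- Control, in ciliated cells, and 0 UMIs in Cd40-/- RANKL-Ab. Ccdc153 (chr9:44240676-44247306, plus strand), a coiled-coil protein of the axoneme, held 79.4% of its UMIs in the ciliated cells of WT-Control and 5.96% in those of WT-RANKL-Ab, where 489 of its UMIs were in other cells. A UMI of Foxj1 was found in 85.6% of the ciliated cells of WT-Control and in 3.01% of its 432 tuft cells that were not ciliated, a type that lacks cilia, with median depths of 14031.5 and 7693.5 UMIs. Tppp3, a tubulin-binding protein gene, was in 96.7% and 48.6% of the same cells, and Dynlrb2 in 90.0% and 0.231%. Of these 3 genes Tppp3 was the one seen most often in tuft cells, and without it, at 4 of the other 6, the rule found 70, 5, 44 and 0 cells. The percentages in ciliated cells were set in part by the rule. Coordinates come from GENCODE M21 (GRCm38).

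The ciliated cells were next set against the other cells of their library over all genes. With 5 CPM added, 529 of the 7367 genes that had at least 20 UMIs in the ciliated cells of WT-Control were at least 4-fold higher there than in the other cells (7.18%), and 25 were at least 4-fold lower (0.339%). In Cd40-/- Control 594 of 5027 genes were higher (11.8%) and 36 lower (0.716%). Of these, 446 genes were shared, or 84.3% of the WT-Control genes and 75.1% of the Cd40-/- Control genes. In WT-RANKL-Ab 469 genes could be measured, of which 37 were higher (7.89%) and 1 lower (0.213%), and no regulator or axonemal gene outside the rule reached 20 UMIs. The minimum was set on the ciliated cells, so genes low there were left out before the lower ones were counted. With a minimum of 1 UMI, 529 of 17103 genes were higher and 89 lower in WT-Control. In Cd40-/- Control 686 of 15086 were higher and 211 lower, and in WT-RANKL-Ab 765 of 8794 and 77.

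**Figure D3:**
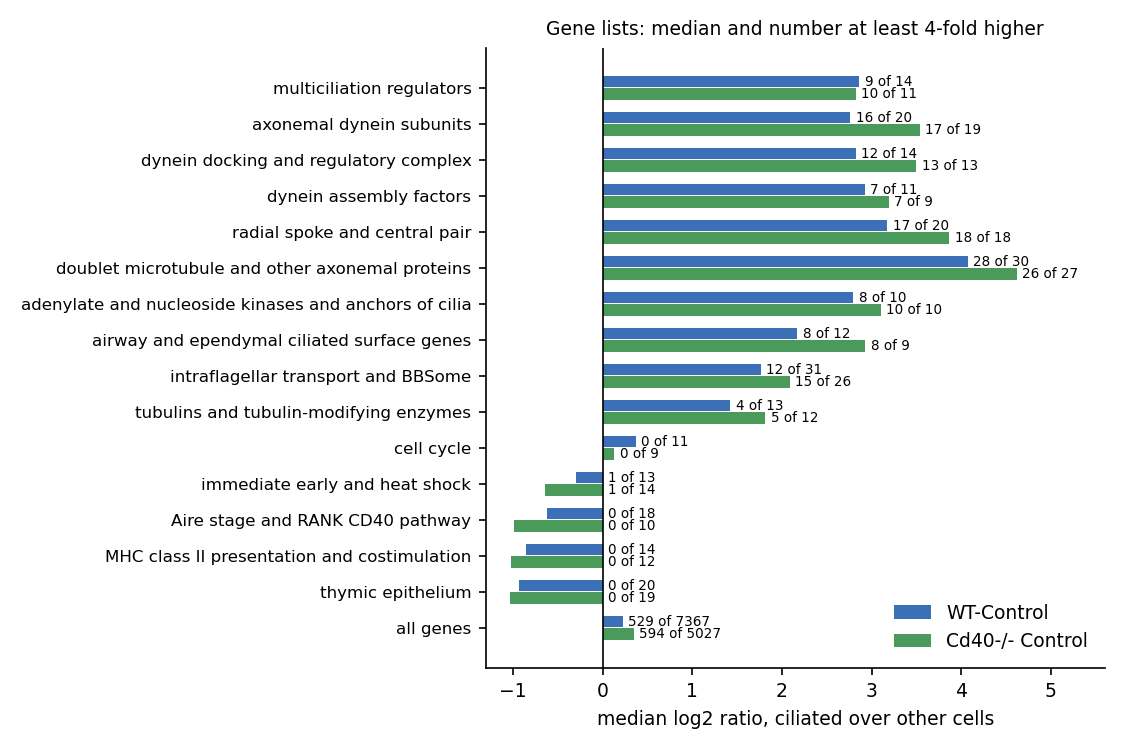
Median log2 ratio (5 CPM added) of 15 gene lists and of all genes in ciliated over other cells of WT-Control (blue) and Cd40-/- Control (green), with the number of measured genes at least 4-fold higher beside each bar. Bars run from 0. Of the lists drawn, the doublet microtubule list had the highest medians, 4.07 and 4.62, and the thymic epithelium list the lowest, -0.93 and -1.03.

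Of 16 regulators of multiciliation, 14 were measured in WT-Control and 9 were at least 4-fold higher, with a median log2 ratio of 2.86, and 10 of 11 were in Cd40-/- Control, with a median of 2.82. Mcidas, the coactivator that starts the program, was at 148 CPM in ciliated and 1.22 CPM in other cells of WT-Control and at 185 and 0.792 CPM in Cd40-/- Control. Ccno, a cyclin needed for centriole amplification, was at 518 and 4.37 CPM, and at 695 and 5.27 CPM. Deup1, the scaffold of the deuterosome, was at 317 and 1.65 CPM, and at 426 and 1.29 CPM. Each had its UMIs in a part of the cells: in WT-Control Deup1 was seen in 52 of 90 ciliated cells, with 0 to 24 UMIs per cell and a median of 1, and Mcidas in 40. Plk4, the kinase of centriole duplication, and Myb, a transcription factor of early multiciliogenesis, are also used by other cells and stood at 162 against 15.2 CPM and 195 against 25.3 CPM. Ccdc78, of the deuterosome, was at 114 against 0.266 CPM, and Cdc20b, which serves the release of new centrioles, at 40.6 against 0.138 CPM. Foxn4 (39.8 against 0.596 CPM) and Trp73 (37.4 against 1.60 CPM), transcription factors of the program, were past 4-fold too. Rfx3 (28.7 against 4.67 CPM), Rfx2 (18.3 against 2.37 CPM) and Cep152 (23.9 against 3.29 CPM), a partner of Plk4, were 3.16- to 3.49-fold higher in WT-Control and past 4-fold in Cd40-/- Control. E2f4 and E2f5, which work with Mcidas, were at 33.4 against 26.1 CPM and at 19.9 against 14.9 CPM. Gmnc, the most upstream member, had 2 UMIs in the ciliated cells of WT-Control, none in WT-RANKL-Ab, with 2 in Cd40-/- Control, and Tubgcp5, of the microtubule nucleating complex, had 6, 0 and 3. Ccno, Mcidas and Cdc20b lie within 103394 bases of each other on chromosome 13 (chr13:112987802-113091195), all on the plus strand.

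Promoters are shown for 3 of these regulators, for Dynlrb2 and for Sntn, a gene of the ciliary tip. Only RefSeq entries with the letters GTTGCC, the core of the X-box that RFX factors bind, are shown. Of the 2 entries of Deup1, 1 held these letters. No entry of Tmem212, Cfap126, Myb, Plk4, Foxn4 or Cdc20b did. The promoters are the 250 bases before the transcription start in RefSeq on GRCm38.p6, 5′ to 3′ on the strand of the gene, with GTTGCC or its reverse complement GGCAAC in capitals. They lie at chr8:116504765-116505014 (plus strand), chr9:15627847-15628096 (minus), chr13:112987552-112987801 (plus), chr13:112993618-112993867 (plus) and chr14:13670626-13670875 (plus).
Dynlrb2: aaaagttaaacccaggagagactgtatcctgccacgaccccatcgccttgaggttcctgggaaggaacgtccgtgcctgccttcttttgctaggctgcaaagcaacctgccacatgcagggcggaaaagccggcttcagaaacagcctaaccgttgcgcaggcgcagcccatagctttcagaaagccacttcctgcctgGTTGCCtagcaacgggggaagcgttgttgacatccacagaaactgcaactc
Deup1: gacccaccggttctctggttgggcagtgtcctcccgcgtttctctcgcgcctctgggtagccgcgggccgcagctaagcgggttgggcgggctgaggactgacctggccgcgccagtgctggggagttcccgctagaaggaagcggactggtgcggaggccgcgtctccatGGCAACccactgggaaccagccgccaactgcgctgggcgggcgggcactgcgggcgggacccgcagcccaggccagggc
Ccno: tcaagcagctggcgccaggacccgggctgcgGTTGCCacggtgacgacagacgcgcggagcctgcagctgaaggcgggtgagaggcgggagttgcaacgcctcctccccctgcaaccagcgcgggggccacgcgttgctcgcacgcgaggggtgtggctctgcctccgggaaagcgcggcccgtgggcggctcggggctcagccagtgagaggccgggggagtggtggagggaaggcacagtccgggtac
Mcidas: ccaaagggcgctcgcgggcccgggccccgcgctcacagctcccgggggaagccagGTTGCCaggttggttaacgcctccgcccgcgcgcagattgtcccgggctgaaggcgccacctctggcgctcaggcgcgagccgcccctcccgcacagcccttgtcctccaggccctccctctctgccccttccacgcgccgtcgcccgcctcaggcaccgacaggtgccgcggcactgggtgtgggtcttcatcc
Sntn: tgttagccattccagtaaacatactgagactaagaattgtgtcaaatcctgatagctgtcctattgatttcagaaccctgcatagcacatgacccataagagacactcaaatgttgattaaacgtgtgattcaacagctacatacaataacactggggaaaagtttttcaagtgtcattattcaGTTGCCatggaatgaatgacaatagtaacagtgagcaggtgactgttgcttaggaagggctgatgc

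The core stood 51 bases before the start in Dynlrb2, 79 in Deup1, 219 in Ccno, 195 in Mcidas and 66 in Sntn. Searched on both strands, GTTGCC was in 10.4% of all 32851 promoter entries of the RefSeq table and in 11.6% of the entries of genes measured in the ciliated cells of WT-Control. It was in 22.0% of 523 entries of the genes at least 4-fold higher there (430 of 529 genes matched the table by symbol) and in 22.2% of 598 entries in Cd40-/- Control. Of the entries of the axonemal lists, 31.5% of 92 held it (84 of 106 genes matched), as did 28.1% of those of the intraflagellar transport list and 5 of 17 of the regulators. TGTTTAC, a forkhead motif searched in the same way, was in 3.17% of all entries and 2.87% of those of the WT-Control genes, and among the sequences shown it is held by Sntn. These are counts of letters, a gene can have several entries, and neighbouring promoters can overlap.

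The axonemal lists together had 80 of 95 measured genes at least 4-fold higher in the ciliated cells of WT-Control, with a median log2 ratio of 3.21, and 81 of 86 in Cd40-/- Control, with a median of 3.81. Of the dynein subunits, 16 of 20 were past the fold, among them the light intermediate chain Dnali1 (239 against 0.617 CPM), the intermediate chain Dnaic2 (178 against 14.7 CPM), the light chain Tctex1d4 (109 against 0.213 CPM) and the heavy chain Dnah12 (105 against 1.28 CPM). Of the docking and regulatory complex, 12 of 14 were, among them Efcab1 (193 against 3.71 CPM), a protein of the outer arm docking site, and Ccdc39 (145 against 0.606 CPM), part of the ruler that sets the spacing of the arms. Of the assembly factors, which fold and load dynein arms in the cytoplasm, 7 of 11 were, with 1110004E09Rik, also known as Cfap298, at 670 against 39.7 CPM and Zmynd10 at 296 against 0.457 CPM.

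The radial spoke and central pair list had 17 of 20 genes past the fold, with the spoke head genes Rsph1 at 771 against 6.13 CPM and Rsph9 at 288 against 6.55 CPM, and the central pair gene Spag6l at 169 against 3.36 CPM. The doublet microtubule list had 28 of 30 in WT-Control and 26 of 27 in Cd40-/- Control. Meig1, which works in sperm flagella, stood at 1187 against 2.82 CPM, Mlf1 at 565 against 13 CPM, Morn5 at 378 against 1.49 CPM, and the tektin Tekt1, a filament inside the doublet, at 346 against 1.82 CPM. Mns1, a protein inside the doublet, stood at 298 against 15.5 CPM. In Cd40-/- Control Meig1 was at 1387, Rsph1 at 789 and Tekt1 at 443 CPM in ciliated cells.

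Genes that primary cilia also use were less far apart. Of the intraflagellar transport and BBSome list, 12 of 31 were at least 4-fold higher in WT-Control, with a median log2 ratio of 1.76. Ift22, a subunit of the train, was at 605 against 34.1 CPM and Ift43 at 461 against 35.9 CPM, whereas Ift20, which also works at the Golgi, was at 545 against 134 CPM, 3.96-fold higher. Of the tubulins and their modifying enzymes 4 of 13 were past the fold. The beta-tubulin of axonemes, Tubb4b, was at 1999 against 194 CPM, and the polyglutamylase Ttll6 at 59.7 against 2.15 CPM. Tubb5, a beta-tubulin of most cells, was lower in ciliated cells, at 120 against 476 CPM, and Tubb2b was at 63.7 against 253 CPM. Of the kinases and anchors of cilia 8 of 10 were past the fold, with Spa17 at 213 against 18.6 CPM and Nme9 at 154 against 1.51 CPM. Of the genes of airway and ependymal ciliated cells 8 of 12 were, with Tmem107 of the transition zone at 891 against 28.0 CPM and the cadherin-like gene Cdhr3 at 52.5 against 0.542 CPM. Cd24a, a surface protein gene used to sort airway ciliated cells, was at 1133 against 284 CPM, 3.94-fold higher. The chaperone gene Hsp90aa1 was at 6768 against 881 CPM in WT-Control and 8991 against 1040 CPM in Cd40-/- Control, the only one of 13 measured genes of the immediate early and heat shock list past the fold in WT-Control. The other stress genes were at or below the other cells or within 1.31-fold above them, for example Hspa1a (162 against 416 CPM) and Fos (205 against 250 CPM).

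The 15 genes with the largest ratios outside the lists were 24.8- to 113-fold higher in WT-Control. The largest was that of Lrrc23, a radial spoke protein gene, at 839 against 2.50 CPM. Next were 1700016K19Rik (795 against 6.49 CPM) and 4833427G06Rik (412 against 1.01 CPM). The others with a name were Pifo, linked to cilium disassembly, at 396 against 5.99 CPM, Vpreb3, first known from B cell precursors, at 398 against 6.20 CPM, Lrrc46, Lrrc51, Erich2 and BC051019. The rest were 6 genes with clone names.

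Most genes of the thymic epithelium and of antigen presentation were present in the ciliated cells of both control libraries at lower levels. No gene of the thymic epithelium, MHC class II or Aire stage lists was at least 4-fold higher in WT-Control or Cd40-/- Control, and the medians were -0.93, -0.86 and -0.62 in WT-Control beside 0.23 over all genes. Krt8, a keratin of mTECs, was at 2360 against 1582 CPM and had a UMI in 89 of 90 ciliated cells. Epcam, the surface marker of the sort, was at 440 against 839 CPM and seen in 82. Cd74, the invariant chain, was at 14458 against 21385 CPM with a UMI in all 90, and H2-Aa at 4432 against 7221 CPM. Aire was at 119 against 335 CPM in WT-Control and seen in 37 ciliated cells, at 64.2 against 285 CPM in Cd40-/- Control and seen in 13 of 52, and at 0 UMIs in the 10 cells of WT-RANKL-Ab. Cd40 in ciliated cells was at 35.8 CPM in WT-Control (45 UMIs), 32.1 CPM in WT-RANKL-Ab (2 UMIs) and 6.26 CPM in Cd40-/- Control (4 UMIs). In the cells with 5 to 7 rule genes it was at 17.5, 0 and 3.59 CPM, and in those with 4 at 97.9, 48.9 and 24.4 CPM. Ccl21a, the chemokine of another mTEC subset, was at 1318 against 7588 CPM, but its reads can be shared with near-identical copies. It was 1 of the 3 genes of the thymic epithelium list at least 4-fold lower in WT-Control, with Prss16, a protease gene of cortical TECs (37.4 against 183 CPM), and Krt5, a keratin of mTECs (105 against 517 CPM). In WT-RANKL-Ab 2 of 9 measured genes of that list were at least 4-fold higher, the tight junction gene Cldn3 (433 against 60.7 CPM, 27 UMIs) and Krt19 (369 against 59.7 CPM, 23 UMIs).

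Markers of other cell types were present in some ciliated cells, and their lists were not all lower than in other cells. The summed thymocyte list was at 55.7 CPM in the ciliated cells of WT-Control against 205 CPM in its other cells, at 32.1 against 1043 CPM in WT-RANKL-Ab and at 210 against 1152 CPM in Cd40-/- Control. Of its 16 genes, 11, 2 and 16 had a UMI, and Rag1, Rag2 and Dntt were at 0 in WT-Control. Per cell the list ranged from 0 to 758 CPM in WT-Control and from 0 to 5148 CPM in Cd40-/- Control, with medians of 0 in all 3 libraries. The tuft list was at 82.0 against 282 CPM in WT-Control, and Avil, Pou2f3, Trpm5 and Gnat3 were among its 8 genes at 0 in WT-RANKL-Ab. The neuroendocrine list was at 207 against 296 CPM in WT-Control but at 1122 against 153 CPM in WT-RANKL-Ab. Among the 10 cells of WT-RANKL-Ab the enterohepatic list (2966 against 721 CPM), the airway secretory list (2565 against 224 CPM) and the microfold list (1475 against 1127 CPM) also stood above the other cells, where in WT-Control they stood at 1827 against 2699, 232 against 248 and 737 against 1737 CPM. In these 10 cells a UMI was found for 2 of 10 enterohepatic, 3 of 12 airway secretory and 2 of 10 microfold genes. No cell had 3 or more genes of any of these 3 lists. Per cell the enterohepatic list had a median of 97.0 and a highest value of 18012 CPM, and the airway secretory list 0 and 17674 CPM. The rules for tuft, microfold and neuroendocrine cells, built in the same way, were met as well by 2, 2 and 2 of the 90 ciliated cells of WT-Control, by 0, 0 and 2 of the 10 cells of WT-RANKL-Ab and by 0, 1 and 1 of 52 in Cd40-/- Control. The fibroblast and endothelial list was at 14.3, 0 and 20.3 CPM in the ciliated cells of the 3 libraries. No doublets were called, and the part of mixed droplets in these values was not tested.

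The ciliated cells differed among themselves in the genes of centriole amplification. The UMIs of 7 genes of the deuterosome stage (Mcidas, Ccno, Deup1, Foxn4, Myb, Plk4 and Cdc20b) were summed per cell, and a cut of 10 per 10000 UMIs, set after the values had been seen, split the 114 cells with at least 5 rule genes into 62 above and 52 below it. This score is a range and not a pair of types, since 32 cells lay between 5 and 20. Above the cut were 37 of 67 such cells in WT-Control (55.2%, 42.6 to 67.4), 23 of 42 in Cd40-/- Control (54.8%, 38.7 to 70.2) and 2 of 5 in WT-RANKL-Ab. These 2 cells lay close to it, at 11.8 and 11.6. The shares moved with the cut: at 5 they were 62.7% in WT-Control and 64.3% in Cd40-/- Control, and at 20 they were 35.8% and 35.7%. At 20 all 5 cells of WT-RANKL-Ab were below. The values that follow use the cut of 10. Of 68 axonemal genes outside the rule measured in WT-Control, 33 were higher above the cut and 35 below it, with a median log2 difference of -0.03, and of 54 in Cd40-/- Control 21 and 33 were, with a median of -0.11. Most axonemal genes thus stood within 2-fold on both sides, for example Rsph1, at 977 CPM above and 945 CPM below the cut in WT-Control, and Tekt1, at 448 and 421 CPM. Past 2-fold in WT-Control were 2 genes higher above the cut, Zmynd10 (464 and 168 CPM) and Mns1 (451 and 204 CPM), and 4 higher below it, Sntn (34.8 and 353 CPM), Dnah9 (16.6 and 159 CPM), an outer arm heavy chain, Cfap53 (24.2 and 152 CPM) and Tctex1d4 (69.6 and 291 CPM). In Cd40-/- Control 2 and 4 genes were, with Zmynd10 (415 and 175 CPM) and Dnah9 (77.8 and 175 CPM) again among them. The rule's own Tmem212 was at 206 and 757 CPM and Foxj1 at 529 and 495 CPM, which are given as a description, since these genes chose the cells and the cut was set on the same cells. The cells above the cut were deeper, with medians of 17837 and 7896 UMIs in WT-Control, and held more Cdk1 (360 against 64.7 CPM) and Top2a (245 against 38.8 CPM), genes of the cell cycle. The part of depth in these differences was not tested.

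**Figure D4:**
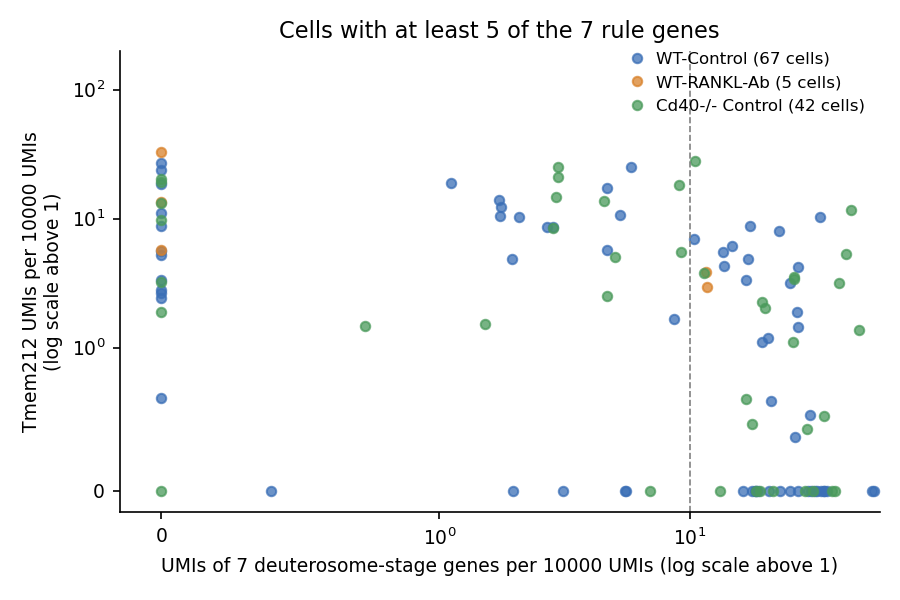
UMIs of Tmem212, a gene of the rule, shown as a description, per 10000 against UMIs of 7 deuterosome-stage genes per 10000 in the 114 cells with at least 5 rule genes. Each point is 1 cell, both axes are logarithmic above 1 and linear below, and the dashed line is the cut of 10. Of the cells right of the line 35 of 62 had a UMI of Tmem212, and of those left of it 45 of 52.

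The 10 ciliated cells of WT-RANKL-Ab were mixed. Cells with 7, 7, 6, 5 and 5 rule genes had UMIs of 47, 53, 33, 10 and 13 axonemal genes, and the other 5 cells, with 4 rule genes, had 6 to 11. Tmem212 had 16, 12, 1, 1 and 1 UMIs in the first 5 cells and 0 in the others. Deup1 and Cdc20b had 0 UMIs in all 10, and Ccno had 3, in 2 cells. One cell with 4 rule genes carried all 125 Ghrl UMIs, ghrelin being a hormone of endocrine cells, another carried 159 of 161 Iapp UMIs, amylin of beta cells, and another all 29 Ube2c UMIs, a gene of mitosis. A cell with 7 rule genes carried all 154 UMIs of Bpifa1, an airway secretory protein gene. Of the 10 cells 3 had 15 or more axonemal genes, a count not matched for depth. The 2 cells with 5 rule genes held 1764 and 2583 UMIs and gave 0.794% and 0.929% of them to axonemal genes. The median of the WT-Control cells with 5 rule genes was 0.887%. At the equal depth used above, all 5 cells with 5 to 7 rule genes had at least 5 axonemal genes, and none with 4 rule genes had.

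Set against WT-Control, with 10 CPM added to each value and 50 UMIs or more in the sum of both, 334 of 3952 genes were at least 2-fold higher in the ciliated cells of WT-RANKL-Ab (8.45%) and 920 were at least 2-fold lower (23.3%), with a median of -0.22. The sums held 62379 UMIs in WT-RANKL-Ab and 1255995 in WT-Control. A gene could thus pass the minimum through WT-Control alone, and both counts depend on this filter. With the 287 genes at 0 set at the ratio that 3 UMIs would give, the median was -0.14. The DESeq2 size factors shift the median to -0.57, with 152 genes higher and 1284 lower, and 25.5% of genes above 0 in place of 41.6%. Of the axonemal genes 43 of 71 were at least 2-fold lower and 1 higher, with a median of -1.13, or -1.05 with the 5 genes at 0 set at the ratio that 3 UMIs would give. In cells with at least 5 rule genes the axonemal median was -0.38 beside -0.35 over all genes. Of the regulators 7 of 8 were at least 2-fold lower, with a median of -2.47, or -2.44 with Deup1 and Cdc20b at that ratio. Cdc20b was among the 7 with 0 UMIs, but its level in WT-Control was below that of 3 UMIs in WT-RANKL-Ab. No fall of Cdc20b could thus be seen at this depth, and the interval of its log2 ratio reached 0.59. Deup1 was at least 6.59-fold lower, Ccno was at 48.1 CPM (3 UMIs) with a log2 ratio of -3.18 and an interval of -5.71 to -1.87, and Mcidas had 1 UMI. The intervals of these ratios are those of the CPM without the addition. The 6 genes with the highest ratios, Ghrl, Iapp, Bpifa1, Chga, Tubb2b and Ube2c, had 69% to 100% of their UMIs in 1 cell. The 6 at the other end had 0 UMIs: Csn2, a milk casein gene among the self-antigens of mTECs, was at least 18.3-fold lower, and Hbb-y, Cdkn1c, S100a8, Tff3 and Slpi were at least 8.0- to 9.90-fold lower. In WT-Control 1 cell held 88% of the Hbb-y UMIs, 73% of those of Tff3 and 65% of those of Slpi, so 1 cell set much of each reference value.

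Ciliated cells outside the rule were looked for in the same way. After thinning, 9, 7, 4 and 1 cells of the 4 libraries had at least 5 axonemal genes without meeting the rule. In WT-RANKL-Ab these 7 cells had a median depth of 3209 UMIs, and 4 of them held 39 UMIs of the deuterosome-stage genes, with 9 of Ccno, 6 of Mcidas and 4 of Deup1. The single cell of Cd40-/- RANKL-Ab held 5533 UMIs and none of these. UMIs of Deup1, at 0 in the 10 cells of the rule, were thus found in WT-RANKL-Ab outside it.

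Few genes differed by 2-fold between the ciliated cells of Cd40-/- Control and WT-Control. Of 5420 genes 113 were at least 2-fold higher (2.08%) and 173 at least 2-fold lower (3.19%), with a median of 0.10. By total UMIs 59.8% of genes were above 0, by TMM factors 50.3% and by DESeq2 size factors 51.3%, with 74 and 84 genes at least 2-fold higher and 222 and 227 lower. Of the axonemal genes 4 of 87 were at least 2-fold higher and none lower, with a median of 0.28, or 0.18 and 0.19 by the other factors. Of the regulators 9 of 12 were above 0, with a median of 0.37 and none past 2-fold. The axonemal genes with the largest values included Ccdc39, with 145 CPM in WT-Control against 343 in Cd40-/- Control (log2 ratio 1.19, 0.95 to 1.53). Ttll6 of the tubulin list was at 59.7 and 147 CPM (1.17, 0.85 to 1.76). Foxj1 was at 423 and 275 CPM (log2 ratio -0.60), which is given as a description, since the rule used it to choose the cells.

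**Figure D5:**
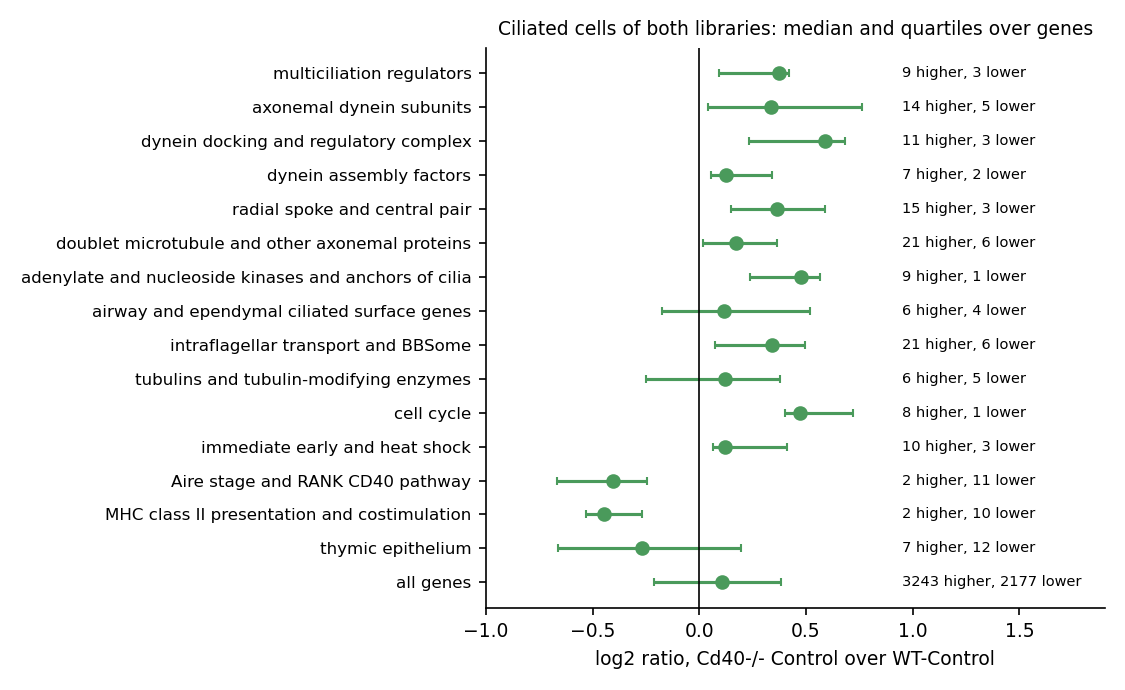
Log2 ratio of CPM (10 CPM added) in ciliated cells of Cd40-/- Control over those of WT-Control, for each gene list. Points are medians over genes, bars run from the lower to the upper quartile over genes and are no error, and the numbers at right count genes above and below 0. All genes had a median of 0.10, the axonemal lists 0.12 to 0.59 and the MHC class II list -0.45.

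Genes of antigen presentation were lower in the ciliated cells of Cd40-/- Control, as they were in its other cells. In cells with 0 to 2 rule genes the summed MHC class II list was at 44606 CPM for WT-Control against 37950 for Cd40-/- Control, and Aire at 335 against 285 CPM. Of the MHC class II list 10 of 12 were lower, with a median of -0.45 and none past 2-fold. Cd74 was at 14458 and 10068 CPM (-0.52, -0.56 to -0.48) and H2-Ab1 at 3846 and 2267 CPM (-0.76, -0.85 to -0.68). Of the Aire stage and RANK CD40 pathway list 11 of 13 were lower, with a median of -0.41, and 2 were past 2-fold. Aire was at 119 and 64.2 CPM (-0.80, -1.43 to -0.39), and 1 cell held 27% of its UMIs in Cd40-/- Control. The cells with 4 rule genes, which held more of these genes than the others, were 23 of 90 in WT-Control and 10 of 52 in Cd40-/- Control. In the cells with 5 to 7 the summed MHC class II list held 20693 CPM in WT-Control against 16928 in Cd40-/- Control, and Aire 51.5 and 28.7 CPM. Cd74 was at 12078 and 9348 CPM in these cells. Of the cell cycle list 8 of 9 were above 0, with a median of 0.47, and Top2a was at 146 and 312 CPM (1.05, 0.80 to 1.39). The summed list was at 704 and 1075 CPM in ciliated cells and at 527 and 867 CPM in the other cells of the same libraries, so it was higher in both kinds of cell of Cd40-/- Control.

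The largest single ratios between these libraries lay outside the cilia lists. The highest were those of Prss16, a protease gene of cortical TECs (37.4 and 332 CPM), Cryaa (7.96 and 97.1 CPM), AU040972 (32.6 and 221 CPM), Dppa3 (13.5 and 103 CPM), Clca3b (27.1 and 163 CPM) and the chemokine Cxcl12 (10.4 and 81.4 CPM). In Cd40-/- Control 1 cell held 94% of the Cryaa, 77% of the AU040972 and 58% of the Prss16 UMIs. The other cells held Prss16 at 183 CPM in WT-Control but 1147 in Cd40-/- Control. At the other end Hbb-bs and Defa21 had 0 UMIs in Cd40-/- Control and were at least 24.9- and 17.3-fold lower, and Slpi (385 and 3.13 CPM), Hbb-y (476 and 6.26 CPM), Klk1b9 (118 and 6.26 CPM) and Itm2a (77.2 and 1.57 CPM) followed. In WT-Control 1 cell held 88% of the UMIs of both Hbb-y and Hbb-bs.

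Ciliated cells were set beside the mimetic cells most like them, found with at least 4 of 7 genes of each type. Tuft cells were 4.25%, 7.94%, 2.74% and 2.74% of the 4 libraries. Microfold cells were 3.89%, 0.782%, 2.77% and 0.0480%, and neuroendocrine cells 0.352%, 0.461%, 0.291% and 0.0480%. For 100 tuft cells there were thus 20.7, 1.76, 22.1 and 0 ciliated cells, for 100 microfold cells 22.7, 17.9, 21.8 and 0, and for 100 neuroendocrine cells 250, 30.3, 208 and 0. In WT-RANKL-Ab the log2 ratio of the share to WT-Control was 0.90 (0.72 to 1.09) for tuft, -2.31 (-2.74 to -1.91) for microfold, 0.39 (-0.34 to 1.11) for neuroendocrine and -2.66 (-3.77 to -1.71) for ciliated cells. Against cells with a UMI of Aire, which were 4493, 546, 2820 and 17 in number, ciliated cells were 2.0, 1.83, 1.84 and 0 for each 100. With 17 such cells in Cd40-/- RANKL-Ab the ratio there could not be set apart from the others at this depth. All the ratios for each 100 cells count the mixed cells with 4 rule genes, and no interval was set on them. With at least 5 rule genes the ciliated cells were 67, 5, 42 and 0 in number.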

How the data were processed

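TECs sorted as EpCAM+CD45-TER119- cells were profiled in 4 droplet libraries, with 1 for each condition. Reads were trimmed by the authors (Fastp), then aligned and counted on mm10, and the deposited matrices hold raw UMI counts per gene and cell. The file headers name Cell Ranger 5.0.1 and the submitters' processing notes Cell Ranger 5.1, and the labels and the methods give different kit versions. Each matrix has 31053 genes, of which 30934 matched GENCODE M21 by identifier. Cells with under 200 genes or over 25% mitochondrial UMIs were left out (79, 73, 178 and 4 cells by genes and 293, 209, 349 and 13 by mitochondrial UMIs, the Cd40-/- libraries last and the control before the antibody). No doublet caller was run, and the methods name no doublet step.

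UMIs were summed over the ciliated and over the other cells of a library and scaled to CPM. Shares have exact binomial (Clopper-Pearson), levels exact Poisson and ratios conditional binomial intervals at 95%. Over other cells, genes with at least 20 UMIs were compared with 5 CPM added and a fold of 4. Between libraries, at least 50 UMIs, 10 CPM and a fold of 2 were used. A count of 0 was set at 3 UMIs. No test was run between conditions, since each had 1 library. Only the ratios between Cd40-/- Control and WT-Control were tried on simulated sums, which held no spread between cells. The rule, the thinning, the shares and the comparison with other cells were not simulated. The genes named outside the lists were the 15 with the largest ratio over other cells and the 6 highest and 6 lowest between libraries, each with at least 50 UMIs. The members, the 27 gene lists and the cuts were chosen with earlier results of these data known. Alternatives changed the rule, the depth, the scaling (TMM of edgeR 4.0.16, size factors of DESeq2 1.42.0), the added CPM, the UMI minimum and the cells kept. Sums and intervals used Python 3.11.15 with scipy 1.17.1, numpy 2.4.6 and pandas 2.3.3, figures matplotlib 3.10.9, and scaling factors R 4.3.3.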

Additional observations from a re-analysis of the deposited data

How the results depend on the processing

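No paired analysis was possible because each group has 1 library, and for the same reason there was no replicate to leave out. Every alternative kept the direction of the ciliated shares. Of the values that answer a comparison 96 were classed as the same and 44 as moved. Of those of single genes 882 were classed as the same, 149 as moved and 1 as reversed. A value classed as the same was not always near the reported one. Genes at least 2-fold lower in WT-RANKL-Ab than in WT-Control went from 920 to 1284 by DESeq2 size factors and kept this class. With 1 CPM added, the ratios of Deup1, Cdc20b and Cdkn1c, without a UMI in WT-RANKL-Ab, fell further and kept it too. The causes were not tested beyond what each setting does by construction.

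For WT-RANKL-Ab over WT-Control, genes at least 2-fold higher were 152 by DESeq2 size factors, 1881 with a minimum of 1 UMI and 133 with 100, and genes lower were 2666 and 434 with these minimums. The axonemal median was -1.46 by DESeq2 size factors, -0.79 as a mean over cells, -1.28 with 1 CPM added and -0.38 in cells with at least 5 rule genes, where Ube2c turned from 2.87 to -3.00.

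For Cd40-/- Control over WT-Control, genes higher were 74 by TMM, 186 as a mean over cells, 217 with 1 CPM added, 253 with a minimum of 1 UMI and 48 with 100, and genes lower were 348 and 95 with these minimums and 115 with at least 5 rule genes. The axonemal median was 0.18 by TMM, 0.19 by DESeq2 size factors, 0.36 as a mean over cells, 0.32 with 1 CPM added, 0.21 with a minimum of 100 UMIs, 0.14 with at least 5 rule genes and 0.33 without cells holding thymocyte RNA.

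Over the other cells of WT-Control, the axonemal median was 3.27 against cells with at most 1 rule gene, 3.17 against cells with Aire, 4.70 with 1 CPM added, 2.98 with a minimum of 1 UMI, 3.29 as a mean over cells and 3.5 with at least 5 rule genes, and genes lower were 89 with a minimum of 1 UMI and 63 with at least 5 rule genes. In Cd40-/- Control the median was 3.70 against cells with Aire, 5.20 with 1 CPM added, 3.49 with a minimum of 1 UMI, 3.74 as a mean over cells, 3.87 without shared barcodes and 3.99 with at least 5 rule genes, and genes lower were 211 with a minimum of 1 UMI. In WT-RANKL-Ab genes higher were 765 with a minimum of 1 UMI, genes lower were 2 against cells with Aire, 77 with a minimum of 1 UMI, 5 as a mean over cells and 0 with at least 5 rule genes, and the axonemal median was 2.70 with a minimum of 1 UMI. The 10 cells and 62379 UMIs of WT-RANKL-Ab limit every value there.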

Other observations

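Gene groups of other mimetic types were uneven within the ciliated cells. The enterohepatic list was at 1827 CPM in the ciliated cells of WT-Control and 2699 CPM in its other cells, but per ciliated cell it ran from 0 to 51481 CPM with a median of 358 CPM. In Cd40-/- Control 1 ciliated cell gave 119250 CPM to this list, and the median was 282 CPM. The airway secretory list was at 232 against 248 CPM in WT-Control and at 2565 against 224 CPM in WT-RANKL-Ab, where Bpifa1 of 1 cell made up most of it. The keratinocyte list was at 117 against 407 CPM in WT-Control and at 169 against 405 CPM in Cd40-/- Control. The erythroid list was at 169 against 230 CPM in WT-Control, with a per-cell median of 0 and a highest value of 7767 CPM, and at 0 in the ciliated cells of WT-RANKL-Ab.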
